A study of Mus musculus with 6 samples.

Results

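RNA of 10 genes best known from heart muscle was followed in leukemia cells sorted from mouse bone marrow. The genes were taken by symbol from the 23284 genes listed for each library, and all 10 symbols were present. There were 4 atrial genes (Nppa, Myl4, Myl7 and Sln), 3 ventricular genes (Myl2, Myl3 and Myh7) and 3 genes shared by both chambers (Nppb, Myh6 and Tnnt2). They were selected on their FPKM levels in single libraries, which earlier results of these data had shown, so those levels are a description and not a test. The cells were C1498, a murine acute myeloid leukemia line, carrying GFP from a retroviral vector and grown from 1 clone. They were injected intravenously into female C57BL/6 J mice, and GFP+ CD49b+ cells were sorted from pooled marrow of femur, tibia and pelvis of each mouse on day 21. The cytarabine group was 3 mice that received cytarabine, a nucleoside drug that blocks DNA synthesis, and the control group was 3 mice that received none, called PBS-treated in some labels and untreated elsewhere in them. There was 1 library per mouse, and the libraries are called cytarabine 1, 2 and 3 and control 1, 2 and 3. The study's methods describe cytarabine injections on the 2 days before day 21 for mice used in imaging, and whether the sequenced mice followed the same schedule is not given in the sources used here.

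The values are FPKM, fragments scaled to transcript length and library depth, so that levels can be compared roughly between genes and between libraries. The comparison between libraries is approximate, since the summed FPKM ran from 622197 in cytarabine 3 to 654599 in control 3. No counts are given in the files. From the steps between low FPKM values the depth was inferred to be between 11.5 and 18.74 M reads a library, and read numbers below are estimates from that. Leukocyte genes were present throughout, with Ptprc (CD45) at between 284 and 386 FPKM, and all 8 on the leukocyte list reached 1 FPKM in every library. The 10 heart genes together held 0.409% of the summed FPKM of control 1, 0.110% of cytarabine 3, 0.0869% of control 2, 0.0083% of control 3, 0.00221% of cytarabine 2 and 9.71e-04% of cytarabine 1.

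In the heart, contraction is driven by myosin, whose heavy chains (Myh6, Myh7) each carry an essential light chain (Myl4 in the atrium, Myl3 in the ventricle) and a regulatory light chain (Myl7 in the atrium, Myl2 in the ventricle). Troponin T (Tnnt2) ties the calcium switch to the thin filament, sarcolipin (Sln) inhibits the calcium pump of the sarcoplasmic reticulum, and Nppa and Nppb encode the natriuretic peptides ANP and BNP. The division between chambers is not absolute. Nppa is also made by the ventricle of the embryo and of the strained heart, Myl4 by embryonic muscle and by red cell precursors, Sln by skeletal muscle, and Myl2, Myl3 and Myh7 by slow skeletal fibers.

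Positions are those of GENCODE M21 on GRCm38, the build also named mm10. Nppa lies on the plus strand of chromosome 4 from 148000722 to 148002079, and Nppb 13516 bases before it, from 147985788 to 147987205. Myh6 (from 54941921 to 54966927) and Myh7 (from 54970684 to 54994626) are neighbors on the minus strand of chromosome 14, with 3756 bases between them. Myl4 lies on chromosome 11 from 104550663 to 104595753 and Myl7 on the same chromosome from 5896637 to 5898782. Sln and Myl3 are on chromosome 9, from 53850164 to 53854560 and from 110741861 to 110769798. Myl2 is on chromosome 5 from 122100951 to 122113472, and Tnnt2 on chromosome 1 from 135836354 to 135852260. Each value is given per gene, and how the transcripts of a gene were combined is not given in the sources used here.

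Promoter sequences from RefSeq (GRCm38.p6) matched 9 of the 10 genes, all but Sln, in windows of 250 bases before to 50 after a start site. The 4 shown are those of Nppa, the gene with the most RNA, of its neighbor Nppb, which was listed at 0, and of the light chain genes Myl7 and Myl3, whose windows hold a CArG box, the motif bound by SRF, the factor the study is about. Capitals mark the CArG box, AGATAA or TGATAA (bound by GATA factors) and AAGTG (bound by NKX2-5), searched on both strands, so that AAGTG on the other strand reads CACTT. None of these motifs overlap in the windows shown.
Nppa, chr4:148000472-148000771, plus strand: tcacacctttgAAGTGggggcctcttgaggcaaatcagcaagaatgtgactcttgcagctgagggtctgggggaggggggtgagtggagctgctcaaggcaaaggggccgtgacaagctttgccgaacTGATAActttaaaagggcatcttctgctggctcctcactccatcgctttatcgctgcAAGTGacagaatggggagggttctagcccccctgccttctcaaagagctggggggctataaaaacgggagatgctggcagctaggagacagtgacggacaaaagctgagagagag
Nppb, chr4:147985650-147985949, plus strand: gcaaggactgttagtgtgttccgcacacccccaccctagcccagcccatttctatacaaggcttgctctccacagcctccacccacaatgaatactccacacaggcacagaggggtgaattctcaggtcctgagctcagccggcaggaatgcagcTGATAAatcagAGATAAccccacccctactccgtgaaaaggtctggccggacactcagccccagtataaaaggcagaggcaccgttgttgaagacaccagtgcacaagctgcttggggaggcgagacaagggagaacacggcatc
Myl7, chr11:5898733-5899032, minus strand: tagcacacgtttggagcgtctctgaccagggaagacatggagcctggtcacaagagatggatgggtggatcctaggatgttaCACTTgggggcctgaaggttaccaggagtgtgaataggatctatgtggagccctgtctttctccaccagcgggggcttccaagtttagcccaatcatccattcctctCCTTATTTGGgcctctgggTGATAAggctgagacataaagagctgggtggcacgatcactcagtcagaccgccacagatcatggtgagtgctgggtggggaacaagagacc
Myl3, chr9:110763428-110763727, plus strand: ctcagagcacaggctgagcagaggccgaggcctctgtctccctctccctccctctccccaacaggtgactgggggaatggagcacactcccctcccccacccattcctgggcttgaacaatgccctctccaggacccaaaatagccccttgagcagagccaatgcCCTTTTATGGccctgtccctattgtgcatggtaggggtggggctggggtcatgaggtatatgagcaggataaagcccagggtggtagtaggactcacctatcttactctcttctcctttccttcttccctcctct
The CArG box was found in the windows of 2 of the 9 genes, Myl7 and Myl3, and in 1.63% of all 32851 windows. AGATAA or TGATAA was found for 5 of the 9 (Nppa, Nppb, Myl7, Myl2 and Tnnt2) and in 18.6% of all windows. AAGTG was found for 6 of the 9 and in 46.4% of all windows, and the MEF2 box for 0 of the 9 and in 0.557%. The 9 genes had 12 windows, since Myl2, Myh7 and Tnnt2 had more than 1 each. Of these 12 windows, 2 held the CArG box, 5 AGATAA or TGATAA, 7 AAGTG and 0 the MEF2 box. The Myl2 motifs lie in a window from 122092474 to 122092773, wholly before the gene start given above. The CArG box was searched only as CC, then 6 letters that are A or T, then GG, so looser forms were not counted. Its relation to the RNA level was not tested. Myl7 reached 4.58 FPKM and Myl3 12.6 FPKM in the library where each was highest.

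Nppa had the highest level of the 10 genes in the 4 libraries where heart transcripts were plentiful. It was at 2.08, 1.27 and 393 FPKM in the cytarabine libraries (1 to 3 in turn), and controls 1, 2 and 3 gave 1479.7, 318 and 30.6 FPKM. In control 1 it ranked 75th among all listed genes. The low values of 2.08 and 1.27 FPKM correspond to about 18.1 and 15.9 reads, against about 13925 reads in control 1. They are 0.141% and 0.0859% of the level in control 1, and where these few reads came from was not tested.

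Myl4, the atrial essential light chain, was at 2.48, 2.88 and 15.1 FPKM in treated mice, and control mice gave 63.4, 10.2 and 3.59 FPKM. The libraries high in Nppa were also the ones high in Myl4, but the lowest Myl4 levels stayed above 2 FPKM. Myl7, the atrial regulatory light chain, was much lower, at 0, 0.413 and 2.34 FPKM after cytarabine against 4.58, 1.05 and 0 FPKM without it. The highest of these values corresponds to about 25.3 reads. Sln was listed at 0.169 FPKM in cytarabine 2 and at 0.773 FPKM in control 2, about 3.5 and 10.7 reads, and at 0 in the other 4 libraries. It was thus at 0 in both control 1 and cytarabine 3, the 2 libraries highest in Nppa, where 3 reads would have given 0.19 and 0.202 FPKM.

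Of the ventricular genes, Myl2 was the highest. It was at 0.537, 0.124 and 106 FPKM in the cytarabine libraries (1 to 3 in turn), and controls 1, 2 and 3 gave 508, 86.1 and 8.14 FPKM. The lowest value is about 1.1 reads, so cytarabine 2 cannot be told from a library with none. Myh7, the beta heavy chain, was at 0.195, 0.036 and 24 FPKM in treated mice, and control mice gave 91.98, 25.8 and 2.31 FPKM. Myl3 was at 0, 0 and 3.46 FPKM after cytarabine against 12.6, 1.86 and 0.251 FPKM without it. Both genes were high in the same 3 libraries as Myl2.

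Of the shared genes, Myh6, the alpha heavy chain that predominates in the adult mouse heart, was at 0.223, 0.145 and 40.1 FPKM in treated mice, and control mice gave 136, 35.8 and 2.68 FPKM. Tnnt2 was at 0.759, 9.18 and 101 FPKM after cytarabine against 354, 72.9 and 6.74 FPKM without it. It was the only one of the 10 genes above 5 FPKM in cytarabine 2. Nppb was listed at 0 in all 6 libraries, where 3 reads would have given between 0.275 and 0.448 FPKM, so its RNA was not detectable at this depth next to Nppa at up to 1479.7 FPKM.

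**Figure D1:**
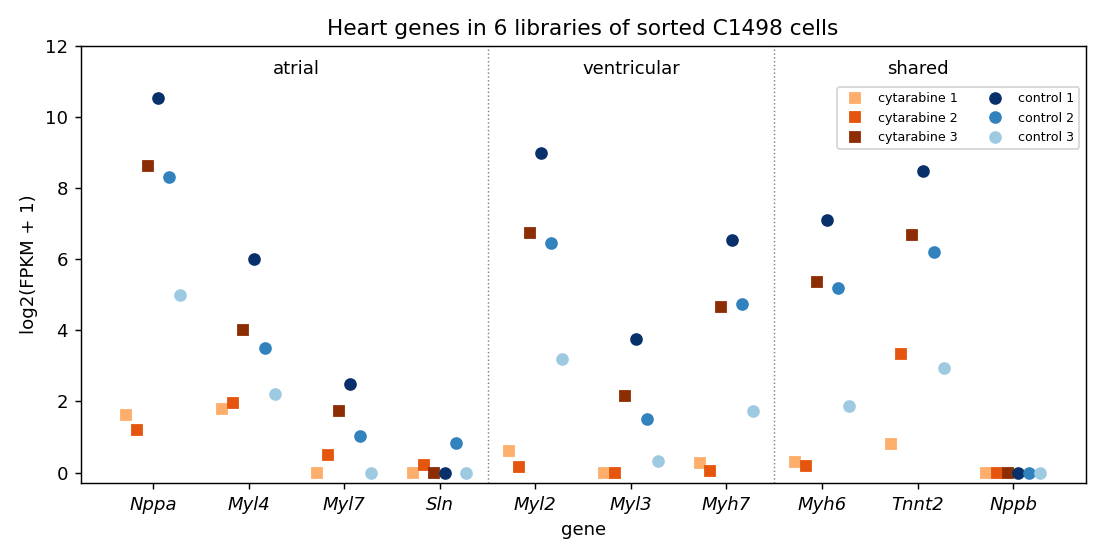
Level of each heart gene as log2(FPKM + 1), 1 point a library, squares for cytarabine and circles for control. Control 1 is highest for 8 of the 10 genes, Myl7 stays below 5 FPKM and Nppb is at 0 in all 6 libraries.

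The order of the genes in control 1 was Nppa, Myl2, Tnnt2, Myh6, Myh7, Myl4, Myl3 and Myl7, with Sln and Nppb at 0. The order of the libraries was nearly the same from gene to gene. Control 1 was highest and cytarabine 3 and control 2 came next for 8 of the 10 genes, all except Sln and Nppb. Of the 11703 genes that averaged 1 FPKM or more, 2.54% had this order. The members were chosen with their levels known, so nothing is read from that difference. Cytarabine 3 and control 2 were close and exchanged places for Myh7, which was at 24 FPKM in the former and 25.8 FPKM in the latter.

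The genes with the higher levels also fell by a similar factor from control 1 to cytarabine 3 and to control 2, and were less alike in cytarabine 1 and 2. For the 7 genes at 10 FPKM or more in control 1, the level in cytarabine 3 was between 21% (Myl2) and 29.4% (Myh6) of that in control 1, with a median of 26.5%. In control 2 it was between 14.8% (Myl3) and 28.1% (Myh7), with a median of 20.6%, and in control 3 the median was 1.99%. In control 3, 6 of the 7 genes were between 1.6% and 2.51%, and Myl4 was at 5.66%. In cytarabine 1 and 2 the medians were 0.163% and 0.0859%, with Myl4 at 3.91% and 4.55% and Tnnt2 at 0.215% and 2.59%. Myl4 thus stood above the other 6 genes in both libraries, and Tnnt2 above the remaining 5 in cytarabine 2. Myl7, at 4.58 FPKM in control 1 and so not among the 7, was at 51.2% in cytarabine 3, outside their range. It was at 23% in control 2, 9.03% in cytarabine 2 and 0 in cytarabine 1 and control 3. These Myl7 values rest on few reads, about 25.3 in control 1 and 12.2 in cytarabine 3. In a bulk library, fewer cells of a type and less RNA per cell cannot be told apart. Whether the heart RNA came from the sorted cells at all was not tested.

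**Figure D2:**
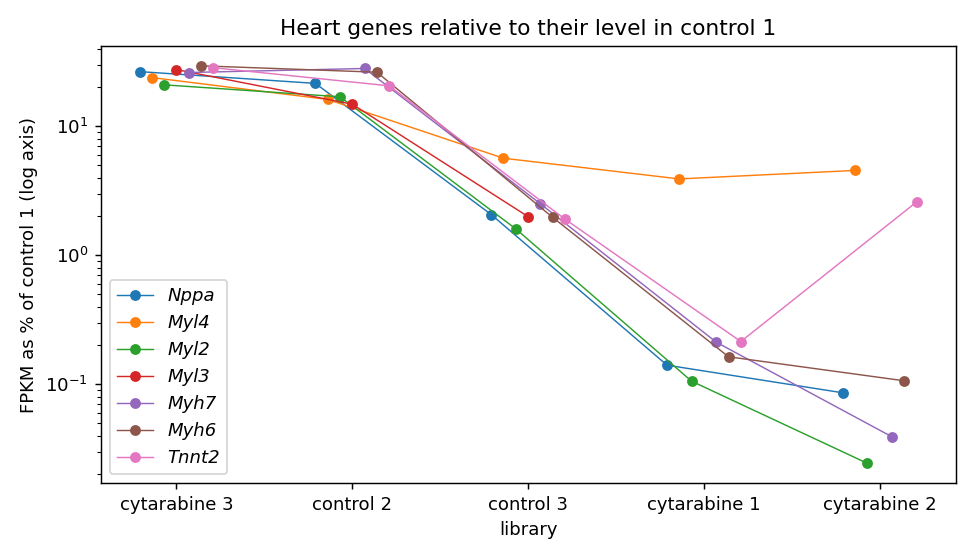
Level of 7 heart genes as a percent of their level in control 1, on a log axis, by library. The genes lie close together in cytarabine 3 and control 2 (medians of 26.5% and 20.6%), and Myl4 and Tnnt2 stand above the rest in cytarabine 2, where Myl3, like in cytarabine 1, is at 0 and not drawn.

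Within a library, partner genes of the atrium and the ventricle can be compared without regard to library scaling. For the regulatory light chains the ventricular gene prevailed. Myl7 made up 0.893% of the summed FPKM of Myl7 and Myl2 in control 1, 2.15% in cytarabine 3 and 1.21% in control 2. In control 3 Myl7 was at 0, where 3 reads would have given 0.667 FPKM. A Myl7 level in the proportion seen in control 1 would lie under that limit. In cytarabine 1 and 2 both genes were at or under about 3.2 reads, and no proportion is given.

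For the essential light chains the atrial gene prevailed. Myl4 made up 83.5% of the sum of Myl4 and Myl3 in control 1, 81.4% in cytarabine 3 and 84.6% in control 2. In control 3 Myl3 was at 0.251 FPKM, about 2.1 reads and under the 0.353 FPKM that 3 reads would have given, and no proportion is given. In FPKM, Myl4 was 5.05 times Myl3 in control 1, 4.38 times in cytarabine 3 and 5.49 times in control 2. The chamber of the prevailing gene thus differed between the 2 pairs of light chains in the same libraries. Myl4 is also made by red cell precursors. The erythroid list, of which 7 genes were listed, summed to 114, 14.2 and 18.7 FPKM in treated mice, and control mice gave 21, 28.7 and 19.1 FPKM. It was highest in cytarabine 1, where Myl4 was at its lowest, and its part in the Myl4 values was not tested.

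For the heavy chains, Myh6 made up 59.7% of the sum of Myh6 and Myh7 in control 1, 62.5% in cytarabine 3, 58.1% in control 2 and 53.7% in control 3. Myh6 and Myh7 are near copies, and 15.4% of the 75-base windows of Myh6 transcripts, the read length, occur unchanged in Myh7. The division between these genes is therefore uncertain, and the strand setting of the counting is not given in the sources used here. No window of that length is shared between Myl2 and Myl7, Myl3 and Myl4, or Nppa and Nppb. The ratio of Nppa to Myl2 was 2.91 in control 1, 3.69 in cytarabine 3, 3.7 in control 2 and 3.76 in control 3.

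**Figure D3:**
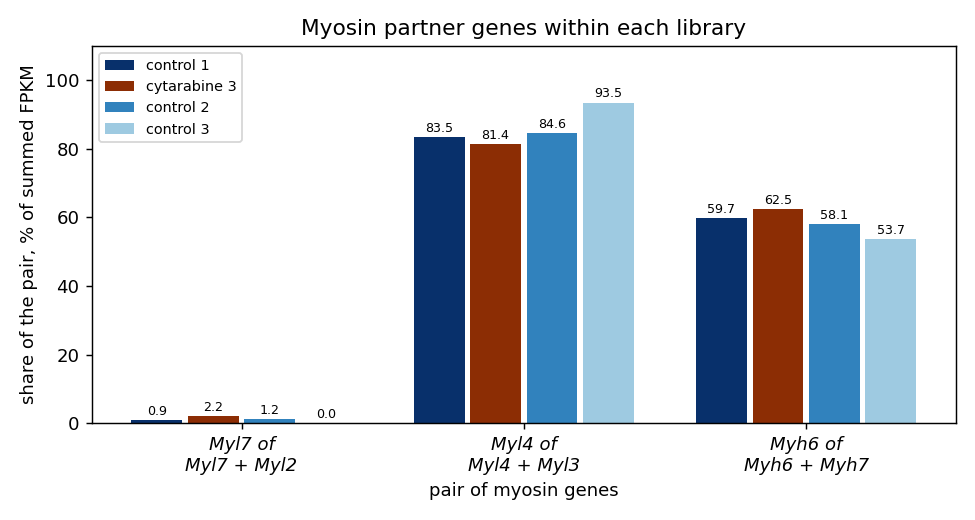
Share of the first gene in each pair of myosin genes, as a percent of their summed FPKM, in the 4 libraries with the most heart transcript. Myl7 is at most 2.15% of its pair, Myl4 at least 81.4% and Myh6 between 53.7% and 62.5%, and in control 3 the bars of both light chain pairs rest on fewer than 3 reads of Myl7 and Myl3.

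As one summary, the mean log2(FPKM + 1) of the 4 atrial genes minus that of the 3 ventricular genes was -1.68 in control 1, -0.82 in control 2, -0.92 in cytarabine 3 and 0.05 in control 3. It was 0.56 in cytarabine 1 and 0.89 in cytarabine 2, where the ventricular genes were near 0 and Myl4 and Nppa were not. The summary depends on which atrial genes enter it. Without Sln, it was -0.091 in control 1 and turned positive in cytarabine 3 (0.27) and control 2 (0.047), while without Nppa it was -3.6 in control 1, -2.6 in cytarabine 3, -2.45 in control 2 and -1.01 in control 3.

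Other genes of heart muscle were taken from lists of filament and Z-disc genes, calcium handling, energy metabolism, transcription factors and further atrial and ventricular genes. Of their 79 genes, 54 reached 1 FPKM in control 1, 43 in cytarabine 3, 33 in control 2, 19 in control 3, 29 in cytarabine 2 and 16 in cytarabine 1. The library order of the members was found for 17 of the 40 that averaged 1 FPKM or more (42.5%, where 2.54% of all genes have it). Among filament and Z-disc genes it was found for 9 of 16. This order was read from the members, and the lists were chosen with earlier results of these data known. Nothing is therefore read from these shares against the 2.54%. Tnnc1, cardiac troponin C, was at 0.768, 0.213 and 122 FPKM after cytarabine against 383, 80.1 and 8.03 FPKM without it. Actc1, cardiac alpha-actin, was at 385 FPKM in control 1, and the inhibitory troponin Tnni3 and the Z-disc actinin Actn2 were at 95.6 and 98.4 FPKM there.

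A pair of genes picked after their values were seen was lower. Ttn, the giant titin, was at 1.74 FPKM in control 1 and between 0.382 and 0.91 FPKM in the other libraries, and the oxygen store Mb was at 4.14 FPKM in control 1 and at most 1.59 FPKM elsewhere. Among calcium handling genes 1 of 4 had the order, Casq2, which holds calcium in the sarcoplasmic reticulum, at 29.9 FPKM in control 1. Among metabolic genes it was 4 of 10, and the small heat shock protein gene Cryab was the highest of these 4, at 69.1 FPKM in control 1. Among transcription factors it was 2 of 4, Tbx20 and Mef2a. Tbx20 was at 15.9 FPKM in control 1, 2.93 FPKM in cytarabine 3, 2.57 FPKM in control 2, 0.851 FPKM in control 3 and 0 in cytarabine 1 and 2, whereas Mef2a was between 9.65 and 15 FPKM throughout.

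Regulators that differ between chambers varied in level. The nuclear receptor gene Nr2f1, from the further atrial list, was between 9.82 and 16 FPKM in all 6 libraries and did not have the order. The ventricular factor Irx4 was at 1.02 FPKM in control 1, 0.436 FPKM in cytarabine 3, 0.202 FPKM in control 2 and 0 in the other 3 libraries. The atrial growth factor gene Bmp10 was at 0.883, 0.134 and 0.217 FPKM in the same 3 libraries, and no more than 0.0686 FPKM elsewhere. Of the further atrial genes that averaged 1 FPKM or more, 0 of 5 had the order, and of the ventricular ones 1 of 1, Lmod2, a regulator of actin filaments in the sarcomere. Counting lower genes too, it was 3 of 13 further atrial genes (Bmp10, Kcnj3 and Tbx5) and 4 of 8 ventricular ones (Irx4, Irx3, Irx5 and Lmod2). Stard10, the further atrial gene with the highest level, followed another order. Stard10 was at 59.6 FPKM in cytarabine 3 and 54.6 FPKM in cytarabine 2, above the 24.3 FPKM of control 1. Of 8 genes of the sinus node and conduction system, 1 reached 1 FPKM in any library. This was the calcium channel gene Cacna1g, with 3.33 FPKM in control 1, while cytarabine 3 gave 0.741 and control 2 gave 0.766 FPKM. Cacna1g and Cntn2, both averaging under 1 FPKM, had the heart order, and Hcn4, a pacemaker channel, was at most 0.467 FPKM.

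The genes whose profile over the 6 libraries was most like that of Nppa were sought by the root-mean-square difference of log2(FPKM + 1) after each gene's mean was taken off. Among all genes Myl2 was the nearest, at 0.38, and outside the members Tnnc1 at 0.48, followed by Tnni3 (1.31), Actn2 (1.32), Ankrd1 (1.44), Acta1 (1.46), Actc1 (1.49) and the ribosomal protein pseudogenes Rpl31-ps12 (1.60) and Rps19-ps3 (1.61). The same 8 genes were nearest to Myl2, at between 0.21 (Tnnc1) and 1.28 (Rpl31-ps12). Those nearest to Myl7 were Rab34, Gnao1, Cadm4, Lmcd1, Col4a5, Hspg2, Sgcd and Slc22a17, at between 0.10 and 0.18. No gene of the other heart lists is among them, and each was at most 7.12 FPKM in control 1. The difference is not scaled for level, so a low gene such as Myl7 lies nearest to other low genes. Counted from Myl7, Myl3 was at place 224 of 11702, Myl2 at 11630 and Nppa at 11652, although these share its library order. Likeness over 6 libraries is a description.

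Colon and smooth muscle genes followed another order, with 0 of 11 and 0 of 8 in that of the heart genes. Zg16, a secretory gene of the colon, was at 137, 1948 and 2207 FPKM in treated mice, and control mice gave 1049, 9.58 and 9.49 FPKM. Cytarabine 2, with nearly the highest Zg16, was thus a library almost without Nppa and Myl2, and control 2, with almost no Zg16, had Nppa at 318 FPKM. The colon epithelium list summed to 256, 3259 and 3657 FPKM after cytarabine against 1677, 22.5 and 24.6 FPKM without it. Of its 11 genes listed, 10 reached 1 FPKM in the 3 cytarabine libraries and control 1, and 5 in control 2 and in control 3. The smooth muscle list, 8 genes, summed to 116, 936 and 1060.2 FPKM in treated mice, and control mice gave 834, 144 and 23.1 FPKM. Cytarabine 2, where Tnnt2 was at 9.18 FPKM and Actc1 at 8.24 FPKM although Myl2 was at 0.124 FPKM, was among the libraries high in smooth muscle genes, with Myh11 at 87.7 FPKM. The part of smooth muscle RNA in the Tnnt2 value was not tested.

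Genes of fast skeletal muscle did not share 1 order. The troponins Tnnt3, Tnni2 and Tnnc2 of fast fibers were at 7.93, 7.88 and 5.65 FPKM in control 2 and at most 0.924 FPKM in the other libraries, and Pvalb, a calcium buffer of fast fibers, was at 3.01 FPKM there and at 0 elsewhere. These 4 genes were singled out after their values were seen. The light chain gene Mylpf was also highest in control 2, at 11.5 FPKM, but was between 2.69 and 6.39 FPKM in the other libraries, and Myl1 was highest in cytarabine 2, at 13.2 FPKM, with 9.5 FPKM in control 2. Sln was also highest in control 2, and the part of skeletal muscle RNA in that value was not tested. In control 1 and cytarabine 3 fast troponins were under 1 FPKM, and the muscle regulators Myod1 and Myog were at 0 in all 6 libraries. Acta1 and Casq1, from the same list, had the order of the heart genes instead, Acta1 at 198 FPKM in control 1 and 43 FPKM in cytarabine 3. Slow fibers share Myl2, Myl3 and Myh7 with the heart. Of a list of other slow fiber genes, Tnnt1 was between 14.6 and 23.2 FPKM in all 6 libraries and Tnni1 between 10.2 and 66.5 FPKM, and 0 of its 4 genes had the heart order.

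Of other cells of the heart and its surroundings, fibroblast genes had the order in 3 of 8 cases, the collagen genes Col1a1, Col1a2 and Col3a1. Col1a1 was at 12.7, 19.1 and 99 FPKM after cytarabine against 331, 189 and 26 FPKM without it. Among endothelial, epicardial and lung epithelial genes 0 had it, and among endocardial genes 1 did, Npr3, which was at most 0.291 FPKM. The lung surfactant gene Sftpc was at most 0.0884 FPKM, and Sftpa1 was at 0 throughout. Leukocyte and ubiquitous genes had it in 0 of 8 and 0 of 7 cases.

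**Figure D4:**
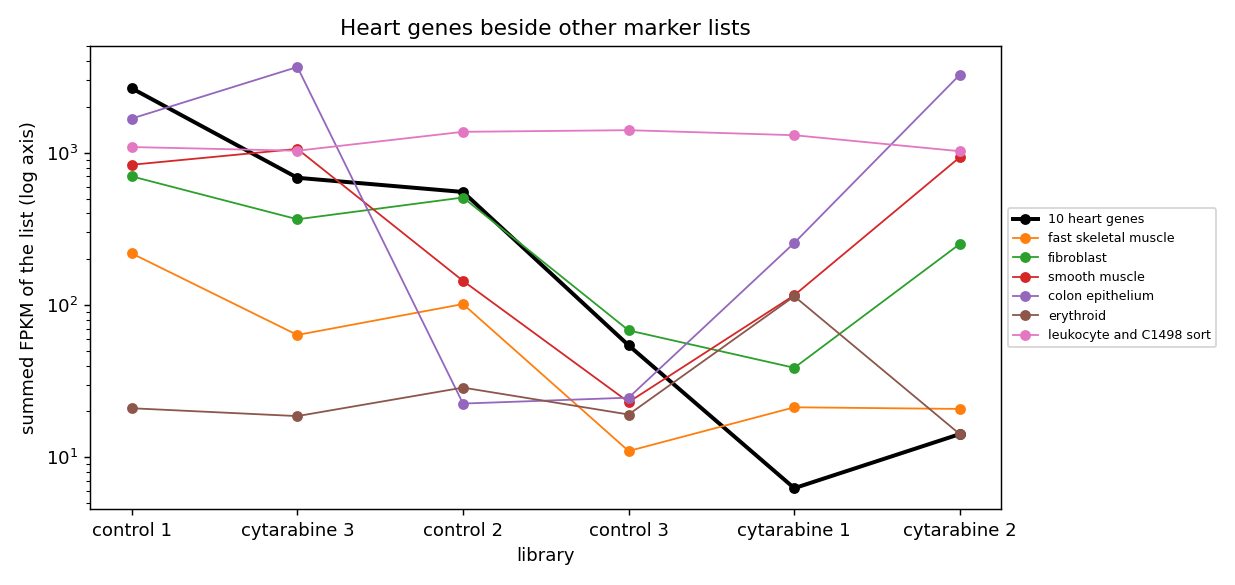
Summed FPKM of the 10 heart genes (thick black line) and of 6 other marker lists, on a log axis, by library. The heart sum falls from 2650.4 FPKM in control 1 to 6.27 FPKM in cytarabine 1, while the colon and smooth muscle lists are high in cytarabine 2 and low in control 3, and the fast skeletal list includes Acta1 and Casq1, which follow the heart genes.

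Whether the heart genes differed between cytarabine-treated and control mice was then asked with limma on log2(FPKM + 1) across the 11703 genes that averaged 1 FPKM or more. Of the 10 heart genes 8 were tested, and Sln and Nppb were below that mean. The estimate was lower with cytarabine for all 8, as it was for 50.3% of all genes. None of the 8 had an adjusted p under 0.05, which 0 of all genes (0.0%) had. None had an unadjusted p under 0.05, which 2038 genes (17.4%, or 9.81% counting those lower with cytarabine) had, and the groups overlapped for each of the 8 genes, whereas they did not for 23.8% of all genes. Nppa was at 132 ± 226 FPKM with cytarabine and 609.6 ± 767 FPKM in controls (SD, n = 3 mice each), and its difference was -4.14 on the log2 scale (standard error 2.39, adjusted p = 0.388 from limma). Myl2 differed by -3.7 (standard error 2.23, adjusted p = 0.398 from limma), Myh6 by -2.78 and Tnnt2 by -2.27. The smallest difference was that of Myl7, at -0.43 (95% interval from -2.31 to 1.46). The adjusted p from limma was between 0.388 and 0.764 for the 8 genes, and each 95% interval included 0. The 3 libraries with the most heart transcript were 2 controls and 1 cytarabine library.

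**Figure D5:**
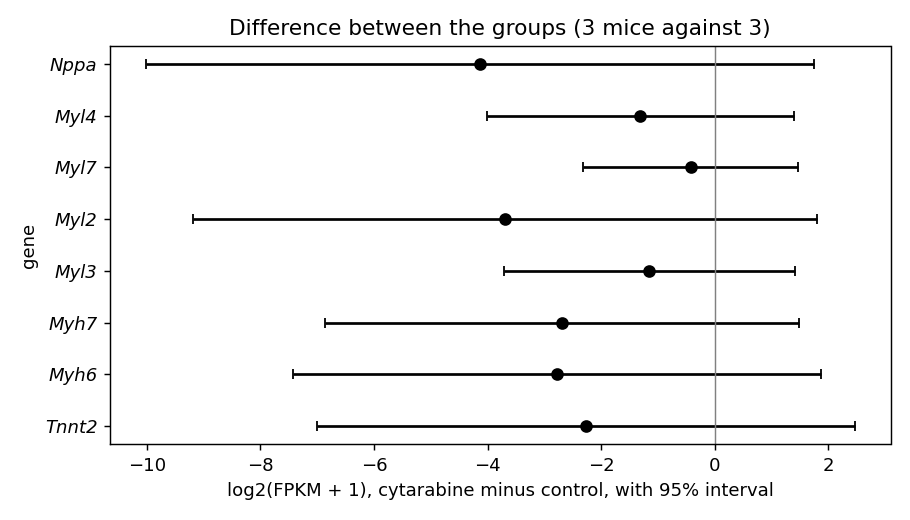
Difference between cytarabine and control in log2(FPKM + 1) for the 8 heart genes tested, with the 95% interval from limma. The points run from -4.14 for Nppa to -0.43 for Myl7 and every interval includes 0.

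Unadjusted calls and overlap changed most when cytarabine 3 was left out. Without it, the groups no longer overlapped for 6 of the 8 genes, each lower with cytarabine (29.3% of all genes did not overlap, and 15.1% were lower). Of the 8, 4 had an unadjusted p under 0.05 (10.9% of all genes, or 619 of 11534 counting those lower with cytarabine). These were Nppa, Myl2, Myh6 and Myh7, with differences of -6.54, -5.81, -4.48 and -4.18 on the log2 scale. Their adjusted p from limma was between 0.371 and 0.432. Cytarabine 3 was the only cytarabine library high in these genes, which were chosen for levels in single libraries. The change therefore follows from leaving it out and is not a test. Other libraries moved the estimates too. Without control 1, the difference was -2.84 for Nppa, -2.31 for Myl2, -1.59 for Myh6, -1.58 for Myh7, -0.97 for Tnnt2, -0.25 for Myl4 and -0.20 for Myl3, and Myl7 fell below the mean needed for a test. Without cytarabine 1, it was -0.87 for Tnnt2 and -0.05 for Myl7. Without control 3 it was -3.73 for Tnnt2, -2.16 for Myl4 and -1.01 for Myl7, and the groups no longer overlapped for 1 of the 8 genes, Myh7 (29.7% of all genes). With all 6 libraries in the fit, 23 of the 40 other heart genes tested had a lower estimate with cytarabine, as did 50.3% of all genes. Of the 40, 2 had an unadjusted p under 0.05 from limma, both lower, Nebl of the Z-disc and Cox6a2 of the respiratory chain. Among all genes 17.4% had such a p, or 9.81% counting those lower with cytarabine, so nothing is read from these 2. Cox6a2 was at 11.3, 14.2 and 16 FPKM in treated mice, and control mice gave 21.4, 24.2 and 31.6 FPKM, an order unlike that of the members, with a difference of -0.84 (standard error 0.18, adjusted p = 0.153 from limma).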

How the data were processed

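Single-end reads of 75 bases from stranded poly(A) libraries of 6 mice were mapped by the authors to mm10 with TopHat 2.0.13, Bowtie2 2.2.3 and SAMtools 0.1.19, and the authors deposited FPKM values per gene from Cufflinks 2.2.1, with length and depth divided out. The gene annotation and options of Cufflinks are not given in the sources used here.

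The 10 members and all gene lists were chosen with earlier results of these data known. Named genes are the members, up to 6 genes of each other list with the highest level, and the 8 genes with the profile nearest to Nppa, Myl7 and Myl2. Ttn, Mb, Nebl, Cntn2, Myod1, Myog and others that make up small counts were named after their values were seen. Depth was inferred from the FPKM steps of genes with 1 GENCODE M21 transcript, with a fragment length of 200 bases assumed, and between 80.6% and 85% of low values came within 0.2 of a whole read. Such read numbers are approximate, and limits of 3 reads cover counting error only.

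Differences between groups came from a linear model per gene in limma 3.58.1 (R 4.3.3; moderated with a mean-variance trend; two-sided p, adjusted by Benjamini-Hochberg over 11703 genes) of log2(FPKM + 1), a scale that understates changes of low genes. The step was also run on simulated data in which genes varied independently, so genes that move together in single libraries were not covered. Whether the mice were handled in batches is not given in the sources used here. Alternatives were another pseudocount, other filters, 2 scalings, eBayes without trend, the replicate number as a block, other choices of atrial and ventricular genes, and leaving out each library. Values were computed with pandas 2.3.3 and drawn with matplotlib 3.10.9 in Python 3.11.15.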

Additional observations from a re-analysis of the deposited data

How the results depend on the processing

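The differences of the 8 heart genes moved by over 1.5 times when some single libraries were left out (Tnnt2 from -3.80 to -0.87, Myl4 from -2.16 to -0.25). They kept their sign and stayed above an adjusted p of 0.05 from limma in all 101 fits of a gene under an alternative. The 120 levels under the 2 other scalings moved by no more than the spread between mice. The scaling factors were only between 0.969 and 1.02 and the spread was wide, so this was bound to happen and is not a test. Nppb was at 0 in every library and could not move. The number of heart genes with an unadjusted p under 0.05 was 0, and from 0 to 4 when 1 library was left out, 4 being without cytarabine 3. Over all genes, the number that passed an adjusted p of 0.05 in limma was 0 (2038 at an unadjusted p under 0.05), against 1 with a pseudocount of 0.1, 2 when limma used no trend, and from 0 to 6 when 1 library was left out (6 without cytarabine 1, 3 without cytarabine 2, and 1 each without control 1 and control 3). With 1 library left out, the count at an unadjusted p ranged from 1176 (without control 3) to 4111 (without cytarabine 1), with 1287 without cytarabine 2, 1254 without cytarabine 3 and 1255 without control 2. The cause was not tested.

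A block for the replicate number left 994 genes with an unadjusted p under 0.05, and no call of a heart gene changed. The numbers do not mark shared mice, and library pairs with 1 number deviated from the group means with correlations of -0.709, -0.247 and -0.594.

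The difference of atrial minus ventricular mean log2 level moved with the genes used. With a pseudocount of 0.1 it was 2.58 in cytarabine 2 and -0.89 in control 3. Without Sln it was 0.27 in cytarabine 3, -0.091 in control 1 and 0.047 in control 2, and without Myl4 it was -0.086 in control 3. Without Nppa it was -2.6 in cytarabine 3, -3.6 in control 1, -2.45 in control 2 and -1.01 in control 3. These follow from the construction, since each setting takes out 1 gene or lowers the zero level. Depth limits Myl7, Sln, Myl3 and Nppb, whose zeros are compatible with up to 3 reads.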

Other observations

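Some pseudogenes of ribosomal proteins shared the library order of the heart genes. Of 5 such pseudogene symbols with a mean of at least 1 FPKM, 3 had it, Rpl31-ps12, Rps15a-ps4 and Rps19-ps3, against 0 of 81 ribosomal protein genes and 2.54% of all genes. Rps19-ps3 was at 1.05, 1.93 and 30.1 FPKM in treated mice, and control mice gave 115, 27.3 and 3.17 FPKM. Rpl31-ps12 was at 0.276, 0 and 12.2 FPKM in treated mice, and control mice gave 51.7, 11.1 and 2.19 FPKM. These genes were noticed through their nearness to Nppa, and reads of a pseudogene and of its parent gene can be hard to assign.

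Of the 11703 genes, 297 had the order. In all, 65 of these had a level in control 1 at least 10 times that in control 3, or 10 FPKM where control 3 was under 1 FPKM. Among the 65 were the members Nppa, Myl4, Myl2, Myl3, Myh6, Myh7 and Tnnt2 and genes of the heart lists such as Actc1 and Tnnc1. The 65 also included the muscle genes Cav3 and Hspb3, the collagen genes Col5a1 and Col6a2 and the collagen chaperone gene Serpinh1. Further ones were Eef1a2, the muscle and neuron form of an elongation factor, and entries such as Gm10012 and Mir546. These were picked after the values were seen and were not tested.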
